A study of Mus musculus with 12 samples.

Results

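The genes described here are 35 autosomal genes of glycolysis, glucose uptake and lactate transport, with the enzymes that set the level of fructose 2,6-bisphosphate and those that gate pyruvate into the mitochondrion. They were taken as a named list of symbols and matched to Ensembl mouse gene IDs. All 35 were among the 57010 IDs of the count tables, and all 35 passed the filter on low counts that left 14253 genes for testing. RNA was measured by poly(A) RNA sequencing in 12 libraries. Their source was primary mouse chondrocytes, the cells that make cartilage matrix. The labels give all cells a wild-type genotype and name 4 libraries Control, 4 WT and 4 SIRT5F101L mutant. The study's design text says that cells were transfected with a wild-type plasmid or with one carrying the F101L mutant of SIRT5, a mitochondrial enzyme that removes malonyl groups from lysines. The WT plasmid is taken here as one for unmutated SIRT5. The labels do not say how Control cells were treated, so plasmid transfection and SIRT5 cannot be told apart in the comparisons with Control. The age, sex and number of the mice and the time after transfection are not given, and nothing says that libraries came from separate cultures, so p-values measure the spread between these libraries, which may be technical.

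Glycolysis splits glucose into pyruvate in the cytosol. Cells take up glucose through carriers of the Slc2a family, trap it with a hexokinase, commit it at phosphofructokinase, and recover ATP in the triose steps that end at pyruvate kinase. Pyruvate is then either reduced to lactate and exported with a proton by the Slc16a carriers, or oxidised by the mitochondrial pyruvate dehydrogenase complex, which Pdk kinases switch off and Pdp phosphatases switch on. Cartilage has no blood vessels, and chondrocytes are known for drawing much of their energy from glycolysis to lactate. Many of the steps have several isozymes that differ in tissue and in regulation.

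Total counts ran from 15095357 to 24242139 per library. Expression is given as TMM-scaled CPM (counts scaled to a common library size), as mean ± SD over the 4 libraries of a group, and levels of different genes are compared only as CPM per kilobase of the longest coding transcript. The plasmid's target, Sirt5, held 1 to 19 counts per library, and its difference from Control was not called in WT (log2 fold change -0.86, adjusted p = 0.143 by edgeR) or in SIRT5F101L (0.03, adjusted p = 0.954). No rise of the counts listed for mouse Sirt5 was therefore detected in the libraries labelled WT or SIRT5F101L, and the reason was not tested. SIRT5F101L replicate 1 stood apart from the other libraries of its group in 3 members, Tpi1, Ldha and Pdk1, and in the members' summed share of counts.

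In both plasmid groups the members were more often higher than lower against Control. In WT, 29 of 35 members passed an adjusted p of 0.05 by edgeR, 23 of them higher and 6 lower, where 56.8% of all tested genes passed, 28.7% higher and 28.1% lower. In SIRT5F101L, 29 of 35 passed, 22 higher and 7 lower, against 60.7% of all tested genes, 30% higher and 30.7% lower. The median log2 fold change of the members was 0.38 in WT and 0.37 in SIRT5F101L, beside -0.01 and -0.02 over all tested genes. A change of at least 2-fold was reached upward by 7 members in WT and 6 in SIRT5F101L, where 9.1% and 9.84% of all genes did so, and downward by Pdp1 in both, where 7.56% and 7.67% did. Without any overlap with Control, 23 members were higher and 6 lower in WT, beside 26.9% and 26.5% of all genes, and 21 were higher and 5 lower in SIRT5F101L, beside 25.7% each way. Both comparisons use the same 4 Control libraries. Fewer cells of a type and less RNA per cell cannot be told apart in such bulk samples.

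**Figure D1:**
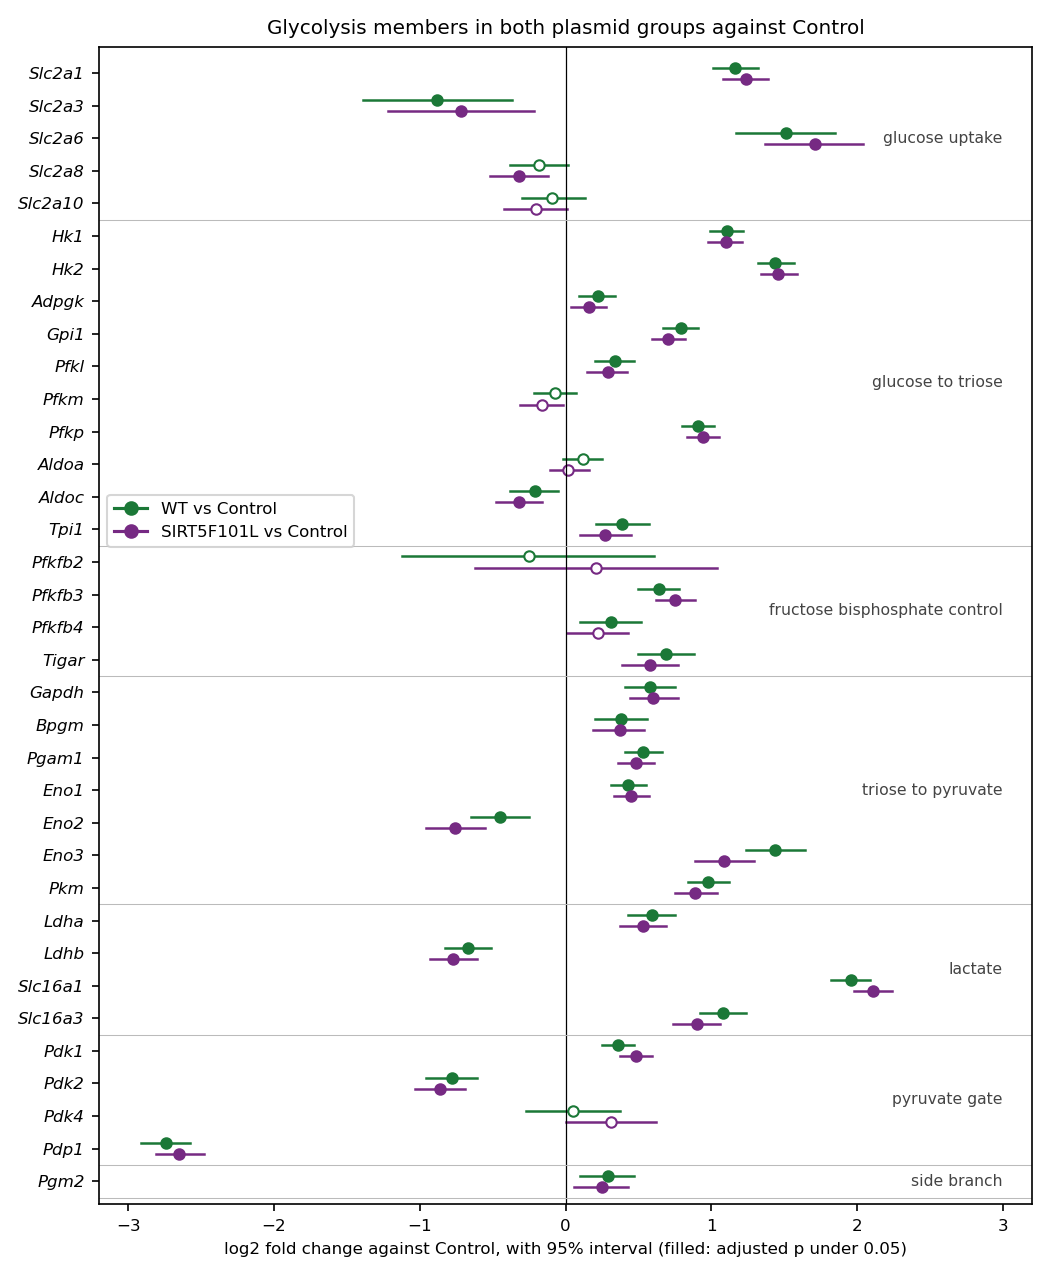
Log2 fold change of each of the 35 members against Control in WT (green) and SIRT5F101L (purple), in the order of the pathway from top to bottom. Lines are 95% intervals from the fit of 12 libraries and filled points have an adjusted p under 0.05. Slc16a1 lies farthest to the right, at 1.96 and 2.11, and Pdp1 farthest to the left, at -2.74 and -2.65.

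No ID of the X, Y or mitochondrial chromosomes held a count in any library, so shares of counts are shares of what the tables hold without these genes. On that base the 35 members together took 1.24% of the counts in Control, with libraries between 1.18% and 1.26%. Their share was 1.98% in WT, between 1.90% and 2.05%, and 1.90% in SIRT5F101L, between 1.83% and 2.07%. The groups with a plasmid did not overlap Control, and the 2.07% came from SIRT5F101L replicate 1. Per kilobase, the 4 most abundant members in Control were Ldha at 1222 ± 67.6 CPM, Aldoa at 1150 ± 38.4, Pkm at 1023 ± 55.7 and Eno1 at 896 ± 26.6, of which Ldha and Aldoa lay within their spread of each other. In WT the order was Pkm at 2016 ± 91.7, Ldha at 1840 ± 132, Aldoa at 1248 ± 63.2 and Eno1 at 1207 ± 47.2, and in SIRT5F101L it was Pkm at 1901 ± 163, Ldha at 1765 ± 202, Eno1 at 1221 ± 55 and Aldoa at 1167 ± 91.5. Within each plasmid group, the means of Pkm and Ldha differed by less than their summed SDs, as did those of Aldoa and Eno1.

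Markers of the labelled cell type moved at the same time. The summed level of 13 chondrocyte markers was 9605 CPM in Control (8161 to 10199), 2341 CPM in WT (2268 to 2420) and 1891 CPM in SIRT5F101L (1804 to 2025), with 11 of the 13 called lower in each comparison with Control. The other markers, Acan and Hapln1, had log2 fold changes of 0.47 and 0.25 in WT, both called higher, and of 0.10 (not called, adjusted p = 0.243) and 0.18 (called higher) in SIRT5F101L. Of 10 macrophage markers, 1, Itgam, was listed at 0 in every library. Of the other 9, 8 were called lower in WT and 7 in SIRT5F101L, and their sum was 177 to 213 CPM in Control, 136 to 154 in WT and 143 to 185 in SIRT5F101L. That sum includes Cd14, which rose by 2.05 in WT and 2.27 in SIRT5F101L, from 12.4 CPM in Control to 51.3 and 59.8 CPM. The 10 muscle markers summed to 12.2 to 13.1 CPM in Control and 3.7 to 6.3 over both plasmid groups, and the 7 endothelial markers to 6.8 to 10 CPM over all libraries. The 5 adipocyte markers summed to 23.6 to 26.5 CPM in Control, 29.6 to 34.9 in WT and 24.7 to 37.9 in SIRT5F101L, and the 1 that could be tested, Fabp4, was called higher in both (0.39 and 0.31). The 6 osteoblast markers, among which Phex was listed at 0, summed to 59.4 to 69.4 CPM in Control, 38.2 to 49.2 in WT and 35.3 to 57.4 in SIRT5F101L. Ibsp fell in WT and SIRT5F101L (-5.64 and -6.50), as did Sp7 (-1.68 and -1.53), while Runx2, which made up most of the sum at 45.8 CPM in Control, was not called (-0.11 and 0.13). The 5 erythroid markers, with Alas2 at 0, summed to at most 0.8 CPM. The part of these shifts in the members' differences was not tested.

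Glucose uptake was described by 5 carriers. Slc2a1, the widely expressed basal glucose carrier GLUT1, was at 66.6, 56.6, 60.5 and 61.7 CPM in the Control libraries, at 154, 139, 137 and 121 in WT, and at 133, 152, 143 and 150 in SIRT5F101L. Every plasmid library lay above every Control library, while the plasmid groups overlapped. The rise was 1.16 ± 0.07 (SE) in WT on the log2 scale, a 2.24-fold change (adjusted p = 4.49e-11), and 1.24 ± 0.07 in SIRT5F101L (adjusted p = 1.62e-11). Slc2a6, a carrier found on lysosomes, rose by 1.51 ± 0.16 and 1.71 ± 0.16 from a low level of 2.07 ± 0.201 CPM. Slc2a3, the high-affinity carrier GLUT3, fell from 3.25 ± 0.617 CPM, with log2 fold changes of -0.88 ± 0.24 in WT (adjusted p = 0.00441) and -0.72 ± 0.24 in SIRT5F101L (adjusted p = 0.0135), and in SIRT5F101L its libraries overlapped Control. Slc2a8, an intracellular carrier, stood at -0.18 in WT (adjusted p = 0.123), where upper-quartile scaling (-0.23, adjusted p = 0.0485) and leaving out Control replicate 2 (-0.24, adjusted p = 0.044) called it lower, and was called lower in SIRT5F101L, at -0.32 (adjusted p = 0.00737). Slc2a10, which is known from arterial disease, did not pass in either (-0.09 and -0.20, adjusted p = 0.481 and 0.0937), but was called lower in SIRT5F101L under 4 of 16 alternatives.

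Per kilobase, Slc2a1 made up 48.7% ± 1.2 of the summed level of the 5 carriers in Control, 68.2% ± 2.8 in WT and 70.5% ± 2.6 in SIRT5F101L. The within-library log2 ratio of Slc2a1 to Slc2a3 counts rose by 2.04 in WT and by 1.99 in SIRT5F101L against Control. For this and the other isozyme ratios, differences were tested by an exact 2-sided permutation test over the 70 arrangements of 8 libraries, whose smallest possible p is 0.0286. Benjamini-Hochberg adjustment ran over 51 tests, 17 pairs in 3 comparisons, and the smallest p becomes 0.0429. A ratio passed when its groups did not overlap at all. In WT 14 of the 17 ratios passed against Control, and in SIRT5F101L 15 did, beside 53.1% and 51.4% of all 101566878 pairs of tested genes, whose log2 ratios did not overlap Control either. Only the 2 ratios of Pfkfb3 to Pfkfb2 and to Tigar failed in both comparisons with Control, and Pfkfb3 to Pfkfb4 failed in WT.

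Hexokinases trap glucose as glucose 6-phosphate. Hk2, the insulin- and hypoxia-responsive form, was at 57.1, 56.1, 63.1 and 59.7 CPM in Control, at 161, 162, 166 and 154 in WT, and at 158, 167, 158 and 168 in SIRT5F101L. All 8 plasmid libraries were higher than all Control libraries, and the plasmid groups overlapped. The change was 1.44 ± 0.06 in WT and 1.46 ± 0.06 in SIRT5F101L, or 2.72-fold and 2.76-fold. Hk1, the housekeeping form, also rose, by 1.11 ± 0.05 and 1.10 ± 0.05, from 238 ± 10.7 CPM. It remained the main glucose kinase, with 63.6% of the summed level per kilobase in Control and 69.1% in each plasmid group. Adpgk, which uses ADP in place of ATP, differed by 0.22 in WT (adjusted p = 0.00416) and 0.16 in SIRT5F101L (adjusted p = 0.0252), where the call was lost under 6 of 16 alternatives, with adjusted p up to 0.122. Its share of the 3 kinases was 24.2% in Control, 14.1% in WT and 13.7% in SIRT5F101L. The log2 ratio of Hk2 to Hk1 was 0.33 and 0.37 higher than in Control.

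Gpi1, the isomerase that follows, rose by 0.79 ± 0.06 in WT and 0.70 ± 0.06 in SIRT5F101L. Phosphofructokinase, the committed step, has 3 subunit genes, and they did not move alike. Pfkp, the platelet-type subunit, was at 179, 171, 184 and 175 CPM in Control and between 327 and 356 CPM in all 8 plasmid libraries, a rise of 0.91 ± 0.05 in WT (adjusted p = 7.43e-12) and 0.94 ± 0.05 in SIRT5F101L. Pfkl, the liver-type subunit, rose by 0.34 and 0.29, the latter 0.16 (adjusted p = 0.0199) with each library's trend on transcript length as an offset and without SIRT5F101L replicate 1. Pfkm, the muscle-type subunit, was not called in either plasmid group, at -0.07 (adjusted p = 0.402) and -0.16 (adjusted p = 0.0512), although 5 of 16 alternatives called it lower in SIRT5F101L. Pfkp made up 27.3% ± 0.92 of the family per kilobase in Control, 37% ± 0.95 in WT and 38.5% ± 0.94 in SIRT5F101L, while Pfkl stayed the largest part at 57.2%, 52.3% and 51.3%. The log2 ratio of Pfkm to Pfkp differed from Control by -0.98 in WT and -1.10 in SIRT5F101L.

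Fructose 2,6-bisphosphate, the strongest activator of phosphofructokinase, is made by the kinase domain and removed by the phosphatase domain of the Pfkfb enzymes. Pfkfb3, the form with the highest ratio of kinase to phosphatase activity, was at 81.9, 75.1, 78.7 and 79.3 CPM in Control, at 123, 116, 131 and 120 in WT and at 117, 144, 133 and 138 in SIRT5F101L. It rose by 0.64 ± 0.07 in WT and 0.75 ± 0.07 in SIRT5F101L, with no overlap with Control. Tigar, a phosphatase that lowers fructose 2,6-bisphosphate, rose as well, by 0.69 ± 0.09 and 0.58 ± 0.09, so that the log2 ratio of Pfkfb3 to Tigar differed by -0.05 in WT (exact permutation, adjusted p = 0.356) and 0.18 in SIRT5F101L (adjusted p = 0.271, exact permutation). Pfkfb4 was called in WT, at 0.31 (adjusted p = 0.0118), and not in SIRT5F101L, at 0.22 (adjusted p = 0.0648). The WT call was lost without WT replicate 2 (adjusted p = 0.0507), and the SIRT5F101L value was called without SIRT5F101L replicate 1, at 0.28 (adjusted p = 0.0209). Pfkfb2, the heart form, lay at 0.84 ± 0.361 CPM in Control and was too low to place, with a 95% interval of -1.12 to 0.61 in WT.

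**Figure D2:**
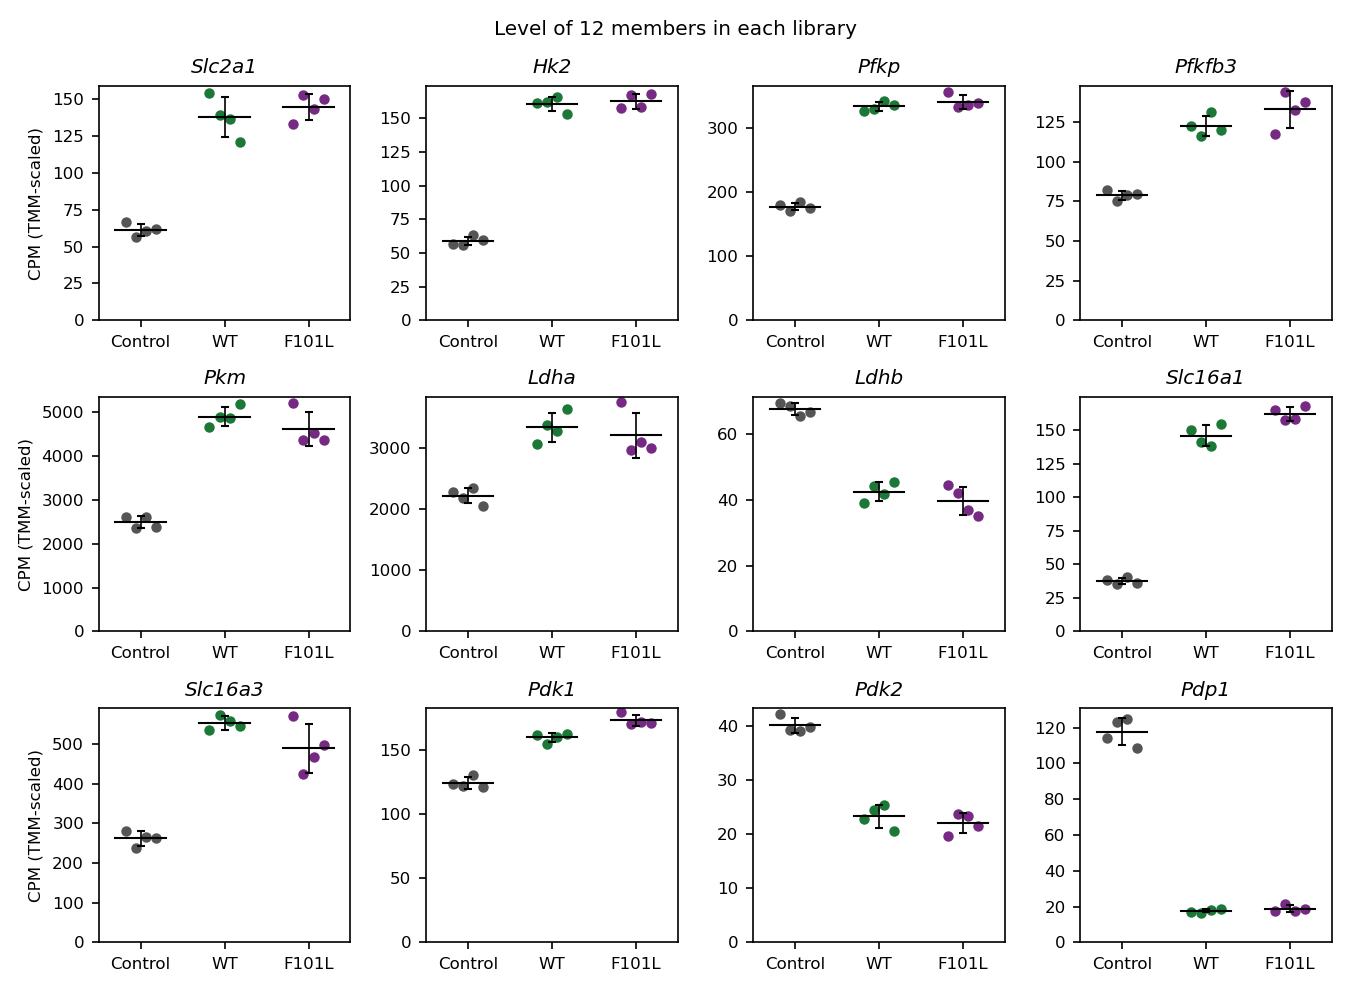
Level of 12 members in each library, as TMM-scaled CPM on axes that start at 0, with 4 libraries a group. Bars mark the mean and SD of each group. Ldhb, Pdk2 and Pdp1 are lower in all plasmid libraries than in Control, and the other 9 panels show the opposite order.

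Of the aldolases, Aldoa, the main form, held 98.5% of the family per kilobase in Control. It was at 1811, 1798, 1823 and 1694 CPM in Control, at 1790, 1955, 2007 and 1981 in WT, and at 2000, 1817, 1749 and 1667 in SIRT5F101L. The groups overlapped, and neither difference was called (0.12 in WT, adjusted p = 0.124, and 0.02 in SIRT5F101L, adjusted p = 0.792, where upper-quartile scaling gave -0.02). With each library's trend on transcript length as an offset both were called higher, at 0.19 (adjusted p = 0.0056) and 0.14 (adjusted p = 0.0281), and a fit of only the 8 libraries compared called it in WT, at 0.13 (adjusted p = 0.0487). Aldoc, the brain-type form, was lower by -0.21 in WT (adjusted p = 0.0252) and -0.32 in SIRT5F101L (adjusted p = 0.00146). Its call in WT was lost when any 1 of Control replicates 2 and 3 and WT replicates 3 and 4 was left out, with adjusted p up to 0.0733. Tpi1, which interconverts the triose phosphates, rose by 0.39 and 0.27, the latter 0.16 without SIRT5F101L replicate 1 (adjusted p = 0.0236).

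In the steps from triose to pyruvate 6 of 7 members were called higher in each plasmid group, beside 28.7% of all tested genes in WT and 30% in SIRT5F101L, and the other, Eno2, was called lower. Gapdh, the dehydrogenase that yields NADH, was at 300.0, 317, 325 and 305 CPM in Control, between 406 and 512 in WT and between 422 and 533 in SIRT5F101L, a rise of 0.58 ± 0.08 and 0.60 ± 0.08. Pgam1, the mutase, rose by 0.53 and 0.48, and Bpgm, the related enzyme that makes 2,3-bisphosphoglycerate, by 0.38 and 0.37. Pgam2, another mutase gene that is not among the 35 members, went the other way. It was at 34.1 ± 0.71 CPM in Control and 10.8 ± 0.866 in WT (-1.66, adjusted p = 2.84e-10 by edgeR). In SIRT5F101L it was at 10.5 ± 2.45 CPM. Per kilobase in Control, Pgam2 was at 40.6 CPM and Pgam1 at 395. Pkm, the pyruvate kinase of most tissues outside the liver, was at 2600, 2360, 2612 and 2383 CPM in Control, at 4659, 4888, 4863 and 5200 in WT, and at 5207, 4379, 4525 and 4379 in SIRT5F101L. Its log2 fold change was 0.98 ± 0.07 in WT (adjusted p = 1.78e-10) and 0.89 ± 0.07 in SIRT5F101L (adjusted p = 6.73e-10), and no plasmid library reached down to Control. Gene-level counts do not separate its M1 and M2 splice forms.

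The 3 enolases, which make phosphoenolpyruvate, went different ways. Eno1, the form of most tissues, rose by 0.43 in WT and 0.45 in SIRT5F101L and held 97.6%, 97.3% and 97.9% of the family per kilobase in Control, WT and SIRT5F101L. Eno3, the muscle form, was at 14.2, 12.7, 15.5 and 14.3 CPM in Control, at 35.7, 43.8, 35.2 and 39.1 in WT, and at 34.4, 29.3, 26.8 and 30.0 in SIRT5F101L. All 3 groups were separate, in the order Control, SIRT5F101L, WT, with changes of 1.44 ± 0.10 and 1.09 ± 0.10 against Control. Of the 10 muscle markers, 4 could be tested, and in each plasmid group 3 were called lower and 1 was not called. Their part in the rise of Eno3 was not tested. Eno2, the neuronal form, was at 35.9, 30.6, 35.7 and 37.9 CPM in Control, at 25.0, 25.9, 25.2 and 26.3 in WT, and at 25.4, 18.2, 19.7 and 19.7 in SIRT5F101L. It fell by 0.45 in WT (adjusted p = 0.000422) and by 0.76 in SIRT5F101L (adjusted p = 1.19e-06), without overlap with Control.

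Lactate dehydrogenase is a tetramer of A and B subunits, of which the A form is associated with making lactate and the B form with using it. Ldha was at 2286, 2189, 2338 and 2059 CPM in Control, at 3068, 3372, 3272 and 3643 in WT, and at 3749, 2969, 3099 and 3000 in SIRT5F101L. It rose by 0.59 ± 0.08 in WT (adjusted p = 1.74e-06) and 0.53 ± 0.08 in SIRT5F101L (adjusted p = 6.3e-06). Ldhb moved the other way, from 69.5, 68.5, 65.6 and 66.8 CPM in Control to 39.0, 44.1, 41.7 and 45.3 in WT and 44.5, 42.1, 36.9 and 35.0 in SIRT5F101L. Neither gene had a plasmid library within the Control range. The B subunit's share of the pair per kilobase was 4.08% ± 0.24 in Control, 1.74% ± 0.035 in WT and 1.70% ± 0.16 in SIRT5F101L. The log2 ratio of Ldhb to Ldha differed from Control by -1.26 in WT and by -1.30 in SIRT5F101L, while between the plasmid groups it differed by -0.04 (exact permutation, adjusted p = 0.637).

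The largest rise of any member was that of Slc16a1, the proton-linked lactate carrier MCT1. Its level was 38.0, 35.3, 40.9 and 36.2 CPM in Control, 150, 141, 138 and 155 in WT, and 165, 158, 158 and 168 in SIRT5F101L. Each group was separate from the others. The change against Control was 1.96 ± 0.06 in WT, or 3.89-fold (adjusted p = 8.28e-16), and 2.11 ± 0.06 in SIRT5F101L, or 4.32-fold (adjusted p = 2.95e-16). Slc16a3, the low-affinity carrier MCT4 that is typical of lactate-exporting cells, was at 282, 237, 267 and 263 CPM in Control, at 536, 574, 558 and 545 in WT, and at 571, 424, 468 and 497 in SIRT5F101L. It rose by 1.08 ± 0.08 and 0.90 ± 0.08, again with no overlap with Control. Slc16a1 made up 12.3% ± 0.67 of the pair per kilobase in Control, 20.5% ± 1.3 in WT and 24.6% ± 1.9 in SIRT5F101L, so Slc16a3 stayed the more abundant carrier in every group.

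Promoter windows are shown for members that rose and hold the letters searched for (Slc16a1, Slc16a3, Hk2 and Ldha), one that rose without them (Pfkp), one that fell without them (Ldhb) and one that fell with them (Pdk2). These were chosen after the values and matches were seen, as examples of each case. The sequences are the 250 bases before the RefSeq start in mouse GRCm38.p6, 5′ to 3′ on the gene's strand, at chr3:104638414-104638663 (plus strand) for Slc16a1, chr11:120948817-120949066 (plus) for Slc16a3, chr6:82774455-82774704 (minus) for Hk2, chr7:46845554-46845803 (plus) for the upstream start of Ldha, chr13:6648772-6649021 (minus) for Pfkp, chr6:142507958-142508207 (minus) for Ldhb and chr11:95041372-95041621 (minus) for the upstream start of Pdk2. Capitals mark ACGTG, a form of the core of the hypoxia response element, on either strand. CACGT is thus the same letters read from the other strand, and CACGTG, the E-box, is counted once on each. The form GCGTG was neither searched for nor marked, and the windows of Pfkp and Ldhb hold it.
Slc16a1: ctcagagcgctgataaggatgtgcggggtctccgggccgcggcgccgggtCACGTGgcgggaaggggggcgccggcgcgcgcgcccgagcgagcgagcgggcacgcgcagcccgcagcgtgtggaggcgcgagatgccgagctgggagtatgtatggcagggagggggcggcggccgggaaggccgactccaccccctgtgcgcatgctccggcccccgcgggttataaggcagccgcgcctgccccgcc
Slc16a3: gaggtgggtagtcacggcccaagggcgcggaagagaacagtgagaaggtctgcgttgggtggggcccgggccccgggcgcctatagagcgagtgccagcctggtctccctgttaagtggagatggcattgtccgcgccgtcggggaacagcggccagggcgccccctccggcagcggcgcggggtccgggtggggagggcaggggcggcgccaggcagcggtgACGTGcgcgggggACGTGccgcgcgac
Hk2: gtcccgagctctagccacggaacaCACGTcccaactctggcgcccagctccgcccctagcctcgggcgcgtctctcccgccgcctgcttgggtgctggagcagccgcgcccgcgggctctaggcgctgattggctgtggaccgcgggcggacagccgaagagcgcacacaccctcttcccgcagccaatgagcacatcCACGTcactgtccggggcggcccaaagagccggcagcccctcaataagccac
Ldha: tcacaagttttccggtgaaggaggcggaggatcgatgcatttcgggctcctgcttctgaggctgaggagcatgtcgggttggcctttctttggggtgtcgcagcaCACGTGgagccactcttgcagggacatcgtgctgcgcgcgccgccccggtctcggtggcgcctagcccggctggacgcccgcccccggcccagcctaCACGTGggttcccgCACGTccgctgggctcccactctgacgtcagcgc
Pfkp: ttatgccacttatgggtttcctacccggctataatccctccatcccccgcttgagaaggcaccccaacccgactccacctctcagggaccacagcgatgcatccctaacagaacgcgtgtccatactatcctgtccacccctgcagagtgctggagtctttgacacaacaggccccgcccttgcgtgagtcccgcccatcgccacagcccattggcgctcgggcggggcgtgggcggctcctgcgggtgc
Ldhb: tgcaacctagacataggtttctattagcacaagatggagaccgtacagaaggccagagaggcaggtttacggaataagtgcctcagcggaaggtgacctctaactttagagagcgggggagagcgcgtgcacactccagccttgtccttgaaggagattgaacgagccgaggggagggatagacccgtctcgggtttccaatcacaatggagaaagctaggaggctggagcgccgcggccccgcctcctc
Pdk2: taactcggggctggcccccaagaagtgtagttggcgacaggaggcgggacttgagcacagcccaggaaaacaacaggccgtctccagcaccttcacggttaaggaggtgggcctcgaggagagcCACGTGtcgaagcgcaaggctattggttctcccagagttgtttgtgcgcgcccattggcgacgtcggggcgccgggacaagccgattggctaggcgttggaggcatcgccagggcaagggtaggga
The Ldha window held 5 matches, those of Slc16a1, Slc16a3, Hk2 and Pdk2 held 2 each, and those of Pfkp and Ldhb held 0. The downstream starts of Ldha and Pdk2 had 0 matches in their windows. For the printed windows of Slc16a1, Ldha and Pdk2, the bases just after the start were not found in a GENCODE M21 transcript of the gene. These 3 starts are therefore uncertain. For Slc16a3, Hk2, Pfkp, Ldhb and the downstream starts of Ldha and Pdk2 such bases were found. Of the other members called higher in WT, Hk1, Eno1, Eno3, Slc2a6, Gpi1, Pdk1, Bpgm, Tpi1, Gapdh, Tigar, Pfkfb4 and Pfkl had 0 in every window. Slc2a1, Pfkfb3, Pkm, Adpgk, Pgam1 and Pgm2 had matches in at least 1 window. RefSeq windows were matched for 33 of the 35 members, 49 windows in all, and Slc2a3 and Pdp1 had none. ACGTG was present in 18 of the 49 windows, or 36.7%, beside 16.6% of all 32851 windows, and in at least 1 window of 14 of the 33 members (42.4%), beside 18.5% of all genes. It was found in 10 of the 23 members called higher in WT, 1 of the 4 called lower and 3 of the 6 not called. CACGTG was present in 6 of the 49 windows (12.2%) and in 6.02% of all. These matches describe letters only, and several members have more than 1 overlapping window. The windows of all genes were not limited to genes tested here and were not matched to the members in base content.

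Of all results for the members, the widest change was at the gate of the mitochondrion. Pdp1, the phosphatase that reactivates pyruvate dehydrogenase, was at 114, 123, 125 and 109 CPM in Control, at 17.2, 16.6, 18.1 and 18.5 in WT, and at 17.8, 21.6, 17.5 and 18.7 in SIRT5F101L. It fell by 2.74 ± 0.08 in WT, to 0.149 of its Control level (adjusted p = 1.45e-16), and by 2.65 ± 0.08 in SIRT5F101L, to 0.160 (adjusted p = 2.11e-16). The kinases that oppose it were split. Pdk1 rose from 124 ± 4.5 CPM by 0.36 ± 0.05 in WT and 0.48 ± 0.05 in SIRT5F101L, the latter 0.31 with the length trend as an offset (adjusted p = 5.28e-05) and 0.26 when SIRT5F101L replicate 1 was also left out. Pdk2, at 42.1, 39.2, 39.0 and 39.8 CPM in Control, was between 20.6 and 25.4 in WT and between 19.6 and 23.7 in SIRT5F101L, and fell by 0.78 ± 0.08 and 0.86 ± 0.08. Pdk4, the fasting-induced kinase, was not called, at 0.05 in WT (adjusted p = 0.799) and 0.31 in SIRT5F101L (adjusted p = 0.0812), but 4 of 16 alternatives called the latter higher, among them leaving out SIRT5F101L replicate 1, at 0.46 (adjusted p = 0.00134), and leaving out Control replicate 1, at 0.40 (adjusted p = 0.0404).

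Pdk1 held 53.5% ± 1.5 of the 3 kinases per kilobase in Control, 69.5% ± 2 in WT and 71.2% ± 3 in SIRT5F101L, and Pdk2 held 39.8%, 23.4% and 20.9%. The count ratio of Pdk1 to Pdp1 was 3.10 higher than in Control on the log2 scale in WT and 3.12 higher in SIRT5F101L, or 8.59-fold and 8.69-fold. These are transcript ratios, and enzyme activity was not measured. They leave out Pdk2, Pdk4 and Pdp2, another Pdp phosphatase. Per kilobase, in Control, WT and SIRT5F101L, Pdk1 was at 24, 30.8 and 33.4 CPM and Pdk2 at 17.8, 10.4 and 9.82. Pdp1 was at 28, 4.19 and 4.5, and Pdp2 at 1.37, 1.51 and 1.4. Pdp2 was not called in WT (0.15, adjusted p = 0.343 by edgeR). Pgm2, a mutase for pentose phosphates at the side of the pathway, was called higher at 0.29 in WT and 0.25 in SIRT5F101L, where its libraries overlapped Control and the call was lost without Control replicate 4 (adjusted p = 0.0867), without SIRT5F101L replicate 3 (adjusted p = 0.0826) and with upper-quartile scaling (adjusted p = 0.0558). With the length offset and without SIRT5F101L replicate 1, Pgm2 in SIRT5F101L was at 0.38 (adjusted p = 0.00012).

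**Figure D3:**
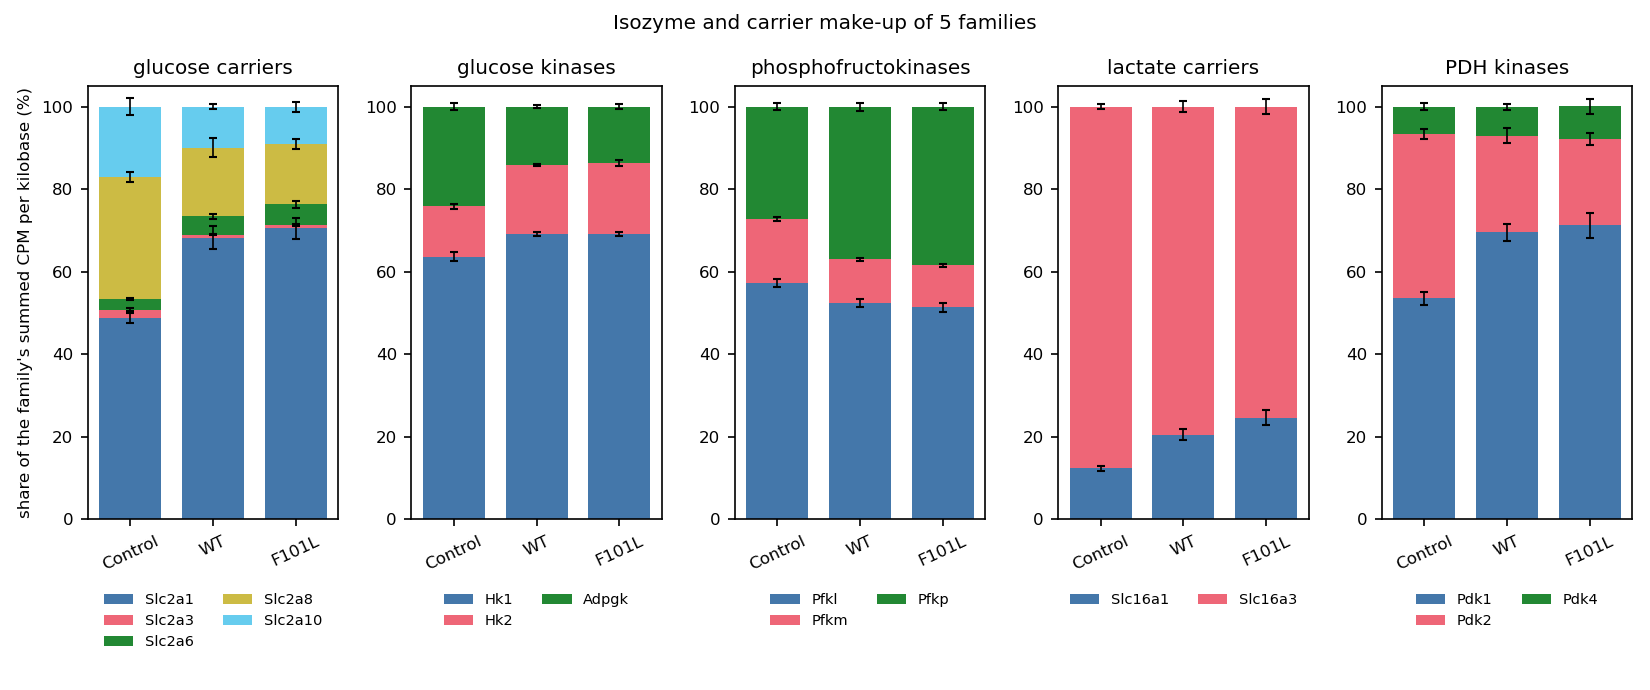
Share of each gene in the summed CPM per kilobase of its family, for the glucose carriers, the glucose kinases, the phosphofructokinases, the lactate carriers and the pyruvate dehydrogenase (PDH) kinases, as group means with the SD over 4 libraries. Slc2a1, Hk1, Pfkl, Slc16a3 and Pdk1 hold the largest share in all 3 groups, and the shares of Slc2a1, Hk2, Pfkp, Slc16a1 and Pdk1 are larger with either plasmid than in Control.

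Levels of some members rest on reads that near-identical copies elsewhere in the genome may share, and how the authors' counting treated such reads is not given in the sources used here. At 95% identity over at least 100 bases, copies in other annotated genes covered 85.6% of the longest transcript of Eno1, 76.8% of Ldhb, 65.5% of Pkm, 55% of Ldha, 43.1% of Pgam1, 36.1% of Gapdh (in 144 genes), 27.3% of Gpi1, 26.6% of Pfkfb2 and 19.3% of Tpi1. The levels and isozyme shares of these 9 members are uncertain for that reason. Exons of other genes, on either strand, overlapped at least 10% of the exon length of 4 members, Pfkfb2 (19.5%), Pkm (15.3%), Gpi1 (11.5%) and Pfkm (10.7%), and their counts are uncertain too, as the strand setting is unknown. Among the 26 members with under 5% of such sequence, 21 were called in each comparison with Control, 16 higher and 5 lower in WT, and 15 higher and 6 lower in SIRT5F101L. Of all tested genes 56.8% were called in WT, 28.7% higher and 28.1% lower, and 60.7% in SIRT5F101L, 30% higher and 30.7% lower.

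Between the plasmid groups no member passed the threshold. By edgeR 0 of 35 members were called in SIRT5F101L against WT, where 0.0421% of all tested genes were, and DESeq2 also called 0. At an unadjusted p under 0.05 there were 5, Eno2, Eno3, Slc16a1, Slc16a3 and Pdk1, beside 11.9% of all genes. That number was 2 without WT replicate 2 (7.25% of all genes), 3 without WT replicate 3 (8.66%), 3 without SIRT5F101L replicate 3 (6.74%) and 3 with the length trend as an offset (11.6%). Without SIRT5F101L replicate 1 it was 12, beside 28.1% of all genes. The groups did not overlap for 3 members, Slc16a1 and Pdk1 upward and Eno3 downward, or 8.57% of the members, beside 4.02% of all genes. The log2 differences were 0.15 for Slc16a1 (95% interval 0.03 to 0.28, adjusted p = 0.371), 0.12 for Pdk1 (0.01 to 0.23, adjusted p = 0.399), -0.17 for Slc16a3 (-0.33 to -0.02, adjusted p = 0.39), -0.35 for Eno3 (-0.54 to -0.16, adjusted p = 0.241) and -0.30 for Eno2 (-0.51 to -0.10, adjusted p = 0.355). With the length offset Pdk1 stood at 0.06 (adjusted p = 0.705), and with SIRT5F101L replicate 1 left out as well, an alternative added after the data were seen, Pdk1 stood at 0.01 (adjusted p = 0.966) and Slc16a1 at 0.08 (adjusted p = 0.45). Slc16a3 was at -0.11 without SIRT5F101L replicate 2 (adjusted p = 0.767) and at -0.31 (adjusted p = 0.000694) with the length offset and without SIRT5F101L replicate 1. For 29 of the 35 members the 95% interval lay within 0.4 log2 units on either side of 0. The exceptions were Slc2a3, Slc2a6, Pfkfb2, Eno2, Eno3 and Pdk4, and the interval of Pfkfb2 ran from -0.39 to 1.32. Of the 13 chondrocyte markers, 12 had a negative difference between SIRT5F101L and WT, 9 an unadjusted p under 0.05 and 6 no overlap, all 6 lower, and 1, Col11a2, was called lower (-0.63, adjusted p = 0.0339). Their median difference was -0.37, beside -0.05 for the members, and their part in the members' differences was not tested.

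Of the 17 isozyme ratios, 5 differed between SIRT5F101L and WT without overlap, beside 3.94% of all pairs of tested genes. The log2 ratio was -0.34 for Slc16a3 to Slc16a1, -0.33 for Eno2 to Eno1, -0.37 for Eno3 to Eno1, -0.12 for Pfkm to Pfkp and 0.21 for Pfkfb3 to Pfkfb4, in each case SIRT5F101L minus WT. Without WT replicate 2 the last was 0.13. Each reached the smallest possible p of the exact permutation test, with an adjusted p of 0.0429 over all 51 tests and 0.0971 over the 17 of this comparison alone, so the calls rest on the ratios tested against Control being in the same adjustment. The enolase pairs share Eno1. In the lactate carriers, Slc16a1 was higher in SIRT5F101L and Slc16a3 lower in 3 of its 4 libraries than in any WT library.

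The library SIRT5F101L replicate 1 decided the count between the plasmid groups. Without it, 6 members were called, Pfkfb3 (0.17, adjusted p = 0.0393) and Pdk4 (0.41, adjusted p = 0.0192) higher, and Tpi1 (-0.23, adjusted p = 0.0132), Eno2 (-0.41, adjusted p = 0.00179), Eno3 (-0.42, adjusted p = 0.00168) and Slc16a3 (-0.25, adjusted p = 0.0055) lower in SIRT5F101L. In that fit 15.2% of all tested genes were called, so 6 of 35 lay near the background. With the length trend also taken as an offset, which was added after the data were seen, 4 members, Eno2, Eno3, Slc16a3 and Pdk4, were called, beside 7.7% of all genes. Leaving out any other library called no member.

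**Figure D4:**
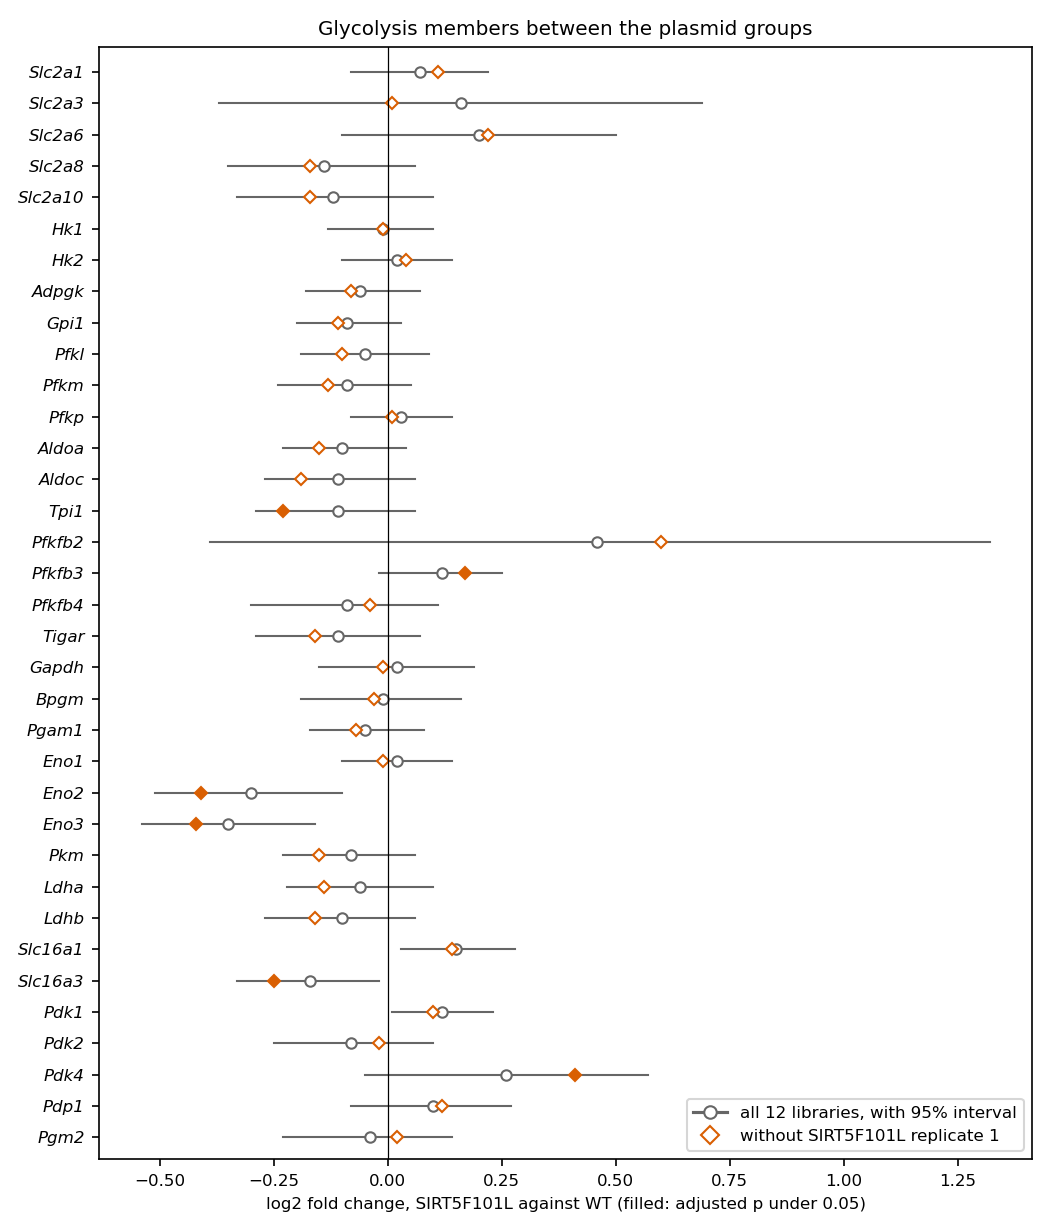
Log2 fold change of each of the 35 members in SIRT5F101L against WT. Circles with 95% intervals are from all 12 libraries and none is filled, as no adjusted p was under 0.05; diamonds leave out SIRT5F101L replicate 1, and the 6 filled ones, Tpi1, Pfkfb3, Eno2, Eno3, Slc16a3 and Pdk4, had an adjusted p under 0.05.

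A further 68 genes of glucose metabolism were followed in 6 groups. Of these 10 were listed at 0 in all libraries, 4 were too low to test and 54 were tested, with 20 called higher and 17 lower in WT and 24 higher and 18 lower in SIRT5F101L, or 68.5% and 77.8% of those tested. Of all tested genes 56.8% were called in WT, 28.7% higher and 28.1% lower, and 60.7% in SIRT5F101L, 30% higher and 30.7% lower. Between the plasmid groups 0 were called by edgeR, and 8 of the 54 had an unadjusted p under 0.05, beside 11.9% of all tested genes. The genes listed at 0 were Pgk1, Pdha1, Pdk3, Pfkfb1, G6pdx, Phka1, Pklr, Gapdhs, Txnip and Hif1a. All 2414 IDs of the X chromosome, which carries Pgk1, Pdha1 and G6pdx among others, were at 0 in every library, so nothing can be read from these zeros about the phosphoglycerate kinase step or the entry into the pentose phosphate pathway. Hif1a and Txnip are autosomal and known to be widely expressed, and nothing is read about expression from their zeros or from those of the other genes at 0.

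Of the further carriers, Slc16a7, the high-affinity monocarboxylate carrier MCT2, rose by 0.73 in WT and 1.03 in SIRT5F101L, and Slc2a12 changed by -0.63 and -0.57. Among rarer isozymes, Hkdc1 stood at 2.07 and 1.74 from 0.293 CPM in Control. It held 2 to 11 counts in the Control libraries and 14 to 26 in the plasmid libraries. It passed the filter on low counts through the latter, so its rise is uncertain. Hk3, a hexokinase of blood cells, changed by -2.01 and -1.33 and Fbp1, which reverses the phosphofructokinase step, by -1.58 and -1.81. In the entry of pyruvate, Mpc2, a subunit of the mitochondrial pyruvate carrier, changed by -0.57 and -0.75, and Dlat, a core subunit of pyruvate dehydrogenase, by 0.41 and 0.42. Pdpr, a regulator of the phosphatase, was not called in WT (0.28, adjusted p = 0.182) and rose by 0.67 in SIRT5F101L.

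Of the pentose phosphate genes, 3 of 7 tested were called higher in each plasmid group, beside 28.7% and 30% of all tested genes. Pgls was called lower in both, at -0.21 and -0.28, and Rpia in SIRT5F101L, at -0.44, where WT stood at -0.16 (adjusted p = 0.258). The 3 called higher were Pgd, at 0.82 in WT and 0.74 in SIRT5F101L, Taldo1, at 0.64 and 0.44, and Tkt, at 0.56 and 0.47. In glycogen metabolism Gbe1, the branching enzyme, rose by 1.50 and 1.71, and Phkg1, a phosphorylase kinase subunit, changed by -0.91 and -1.10. Of the regulators, Epas1, a hypoxia-inducible factor subunit, changed by -1.04 and -0.93, and the prolyl hydroxylases that mark such factors for decay rose, Egln1 by 0.96 and 0.98 and Egln3 by 0.78 and 1.02.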

How the data were processed

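Poly(A) RNA was sequenced from 12 chondrocyte libraries, as 150 bp paired-end reads per the labels' protocols. The authors deposited raw counts, as whole numbers for each Ensembl gene ID. The submitters' processing notes name FastQC 0.11.9, HISAT2 2.2.1, HTSeq 2.0.2 and DESeq2 1.38.3 and the builds GRCm39 and mm39. The annotation release, the strand setting and the treatment of reads with several matches are not given in the sources used here, so no coordinates were read with these counts.

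Groups were taken from the treatment label, and replicate numbers only name libraries in order. Genes were tested with edgeR 4.0.16 in R 4.3.3 (TMM, default filter by group, quasi-likelihood fit of all 12 libraries, 2-sided, Benjamini-Hochberg over 14253 genes, threshold 0.05). The standard error is the log2 fold change divided by the square root of F, and intervals are 95%. The biological coefficient of variation was 9.18%. Isozyme ratios used log2 counts with 0.5 added and an exact permutation test. The scripts were tested on simulated data. Transcript lengths, exon overlaps and near-identical copies (BLAST 2.17.0) came from GENCODE M21, whose build differs from the authors', and promoter windows from RefSeq. A second Ensembl ID named Aldoa held 0 counts and was left out.

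The members and the gene lists were chosen with earlier results of these data known. All members may be named. Of the other pathway genes, those named are the 2 called genes with the largest absolute change in each group and comparison with Control, with their values in both comparisons, and the genes at 0. Pdp2, Pgam2, Pgls and Rpia were named in addition, and these and the named markers were chosen after their values were seen. Alternatives were RLE and upper-quartile scaling, 2 other filters, the 8 libraries compared, DESeq2 1.42.0, a loess length offset, a ratio prior count of 2, and leaving out each library.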

Additional observations from a re-analysis of the deposited data

Results flagged for a closer look

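In 4 libraries a group, a value was picked out where its gap to the nearest library exceeded Dixon's critical share of the group's range. Of 108 groups of values examined, 7 met this, where chance alone picks about 1 in 20, or 5.4. SIRT5F101L replicate 1 gave 4 of the 7. It was highest for Tpi1, at 1411 CPM against 1038 to 1087 in the other libraries of its group, for Ldha, at 3749 CPM against 2969 to 3099, and for Pdk1, at 180 CPM against 170 to 171. Its summed share of counts of the 35 members was 2.07%, where the others lay between 1.83% and 1.87%. Hk1 was at 532 CPM in WT replicate 3 and between 506 and 508 in the other WT libraries. Pfkl was at 445 CPM in WT replicate 2 and between 415 and 418 in the others. Adpgk was at 53.4 CPM in Control replicate 4 and between 52.1 and 52.3 in the others.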

How the results depend on the processing

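Against Control, 29 of 35 members in WT and 28 in SIRT5F101L kept direction and side of the threshold under all alternatives run. Of the called values, Pfkl, Tpi1, Pdk1 and Pgm2 in SIRT5F101L moved by over 1.5 times under the settings given beside their values. None of the values that turned sign was called in the main test. Pfkfb2 in WT, -0.25 with all libraries, ran from -0.75 to 0.09 when single libraries were left out. Pdk4 in WT, 0.05, ran from -0.02 to 0.14. Aldoa in SIRT5F101L, 0.02, ran from -0.03 to 0.06 and was -0.02 with upper-quartile scaling. Their cause was not tested. Between the plasmid groups 0 members were called in the main test. With no filter beyond 1 count, 1 was called, Eno3, lower, beside 354 of all 25722 genes, where the main test called 6 of 14253. Leaving out single libraries gave 0 to 6 called, 0 to 2 higher and 0 to 4 lower, and all calls came without SIRT5F101L replicate 1. With that library left out and a length offset, an alternative chosen after seeing the data, 4 were called, 1 higher and 3 lower. The cause was not tested. The 14, 15 and 5 isozyme ratios that passed (WT and SIRT5F101L against Control, and between the plasmid groups) kept their direction with a prior count of 2 and without each library in turn, the latter given as differences only, and Pfkfb3 to Pfkfb4 between the plasmid groups moved from 0.21 to 0.13 without WT replicate 2. No paired analysis was possible because the labels carry no replicate numbers. Pfkfb2, at about 1 CPM, held 7 to 27 counts per library, and its values are uncertain.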
